A study of Arabidopsis thaliana with 20 samples.

Results

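The genes described here are 6 little-known Arabidopsis genes whose 3′RNA-seq level differed between *msh-1* and WT: AT5G24640, AT4G12735, AT2G13547, AT5G46871, AT3G08030 and AT1G75945. They were selected on their difference in counts between the genotypes, out of a table of 37184 genes, as genes with no established role in seed dormancy. Their levels are therefore given as a description, without a test. *msh-1* is a homozygous T-DNA insertion line in which the transcriptional unit of the long noncoding RNA *MUSHER* is disrupted, and WT is the Columbia (Col-0) accession in which the line was made, so that *msh-1* stands for 1 insertion in 1 background. Each genotype had 4 libraries, described in the design text as biological replicas. The labels give the material as siliques collected between 13 and 20 days after pollination, whereas the text of the study calls it freshly harvested seeds.

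A maturing silique holds embryo, endosperm and seed coat inside a fruit wall, and in these weeks the embryo stores reserves, becomes tolerant to drying and enters dormancy. *DOG1* (DELAY OF GERMINATION 1) is a central regulator of that dormancy, and *PIR1* encodes an E3 ligase connected with the response to the hormone abscisic acid. Little is known of the 6 genes. AT5G46871 belongs to the defensin-like family, small secreted proteins whose cysteines are joined by disulfide bridges and which are known from defence and from the contact between pollen and ovule. AT3G08030 belongs to the DUF642 family, cell wall proteins of seed plants that have been tied to the control of pectin methylesterases. The reference annotation describes its mRNA as a candidate marker of seed viability, since it is detected in seed lots that germinate well. The products of AT5G24640, AT4G12735, AT2G13547 and AT1G75945 are annotated only as uncharacterized proteins.

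The gene products are short, with AT3G08030 as the exception. In RefSeq (TAIR10.1) AT4G12735 encodes 60 residues, AT1G75945 61, AT2G13547 70, AT5G46871 78, AT5G24640 118 and AT3G08030 365, beside a median of 347 residues over 27562 coding genes, of which 11.4% encode at most 120 residues. The defensin-like protein AT5G46871 has 7 cysteines, 8.97% of its residues, against a median of 1.67% over all coding genes, and the other 5 products hold between 1.37% and 2.86% cysteine.

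In 3′RNA-seq, cDNA is primed from the polyA tail and only its 3′ fragments are sequenced, and a count stands for a read from that end, whatever the length of the mRNA. Library totals ran from 2590800 to 6500907 counts in *msh-1* and from 959004 to 2498295 in WT, and each *msh-1* library was deeper than each WT library. Levels are therefore given as counts and as CPM, in which counts are scaled to library size with the TMM factors of edgeR, a unit that does not depend on the depth. A count of 3 equals between 0.481 and 3.29 CPM, depending on the library. The labels were checked with *PIR1*, which had 2, 0, 0 and 0 counts in *msh-1* and 14, 23, 30 and 8 in WT, and with *DOG1*, at 22.1 ± 1.11 CPM in *msh-1* and 42.0 ± 5.42 CPM in WT (SD, n = 4 each); *MUSHER* itself was not analysed here. Of the 5 lists of tissue markers, the sum for green tissue (12 photosynthesis genes) was lowest in *msh-1* 1 (80.2 CPM) and WT 4 (59.2 CPM), against 211 to 265 CPM in the other *msh-1* libraries and 215 to 256 CPM in the other WT libraries. None of the 12 passed the test between genotypes (edgeR), and 7 had an unadjusted p under 0.05. The share of all genes tested under that p was not counted, so the 7 cannot be called many or few. These 7 did not share a direction. *LHCB1.1*, *LHCB1.3*, *LHCB5*, *RBCS3B* and *PSAF* were higher in *msh-1*, with log2 fold changes between 1.05 and 2.26. *PSBR* (−0.80) and *RCA* (−1.68) were lower. A similar sum therefore does not mean that each gene was level. The maturing embryo list summed to between 35313 and 42166 CPM in *msh-1* and between 32271 and 40908 CPM in WT, the endosperm list to between 21208 and 37437 CPM in *msh-1* and between 15589 and 38533 CPM in WT, and the seed coat list to between 101 and 122 CPM in *msh-1* and between 105 and 126 CPM in WT. Most of the embryo sum was *CRA1*, *CRU3* and *OLEO1*, at means of 15014, 8758 and 13063 CPM in *msh-1* and 14770, 9024 and 12867 CPM in WT. *ABI3*, in the same list, had 61.0 CPM in *msh-1* and 64.4 CPM in WT. Nearly all of the endosperm sum was *EPR1*, at a mean of 26606 CPM in *msh-1* and 28187 CPM in WT. Most of the seed coat sum was *SBT1.7*, at 105 CPM in *msh-1* and 100 CPM in WT. *MUM2* was the only other seed coat gene to pass the filter on low counts. It had 1.92 ± 2.58 CPM in *msh-1* and 9.73 ± 6.32 CPM in WT (SD, n = 4 each, adjusted p = 0.121, edgeR). The embryo, endosperm and seed coat sums say little of the other genes in their lists. The silique wall list was lowest in the same libraries as green tissue, at 7.54 CPM in *msh-1* 1 and 5.48 CPM in WT 4, against 11.8 to 14.5 CPM in the other *msh-1* libraries and 16.8 to 23.1 CPM in the other WT libraries, with the fruit-opening regulator *IND* at 0 in all 8 libraries, as was the endosperm gene *PHE1*.

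Of the 6 genes, 5 were higher in *msh-1*, with ratios of the mean CPM between 2.33 and 4.30, and AT1G75945 was lower. The *msh-1* and WT libraries did not overlap for 5 of them, AT3G08030 being the exception. Over all 10902 genes that passed the filter on low counts, 4.76% had groups that did not overlap, 2.57% with *msh-1* higher and 2.19% with *msh-1* lower. Of the same genes, 0.413% passed an adjusted p of 0.05 (edgeR's quasi-likelihood test) at more than a 1.5-fold difference, 0.101% with *msh-1* higher and 0.312% with *msh-1* lower. Nothing is read from the count of 5, since this contrast chose the genes. All 6 passed the filter. AT5G46871 reached its level in both genotypes, AT1G75945 only in WT, and the other 4 in all libraries of *msh-1* but not in all of WT, so that the filter kept them through the genotype in which they were high. Among the genes tested, the mean CPM of AT4G12735 in WT stood at percentile 0.0367 and that of AT1G75945 in *msh-1* at percentile 0.00917. In bulk samples of this kind, fewer cells of a type and less RNA per cell cannot be told apart.

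**Figure D1:**
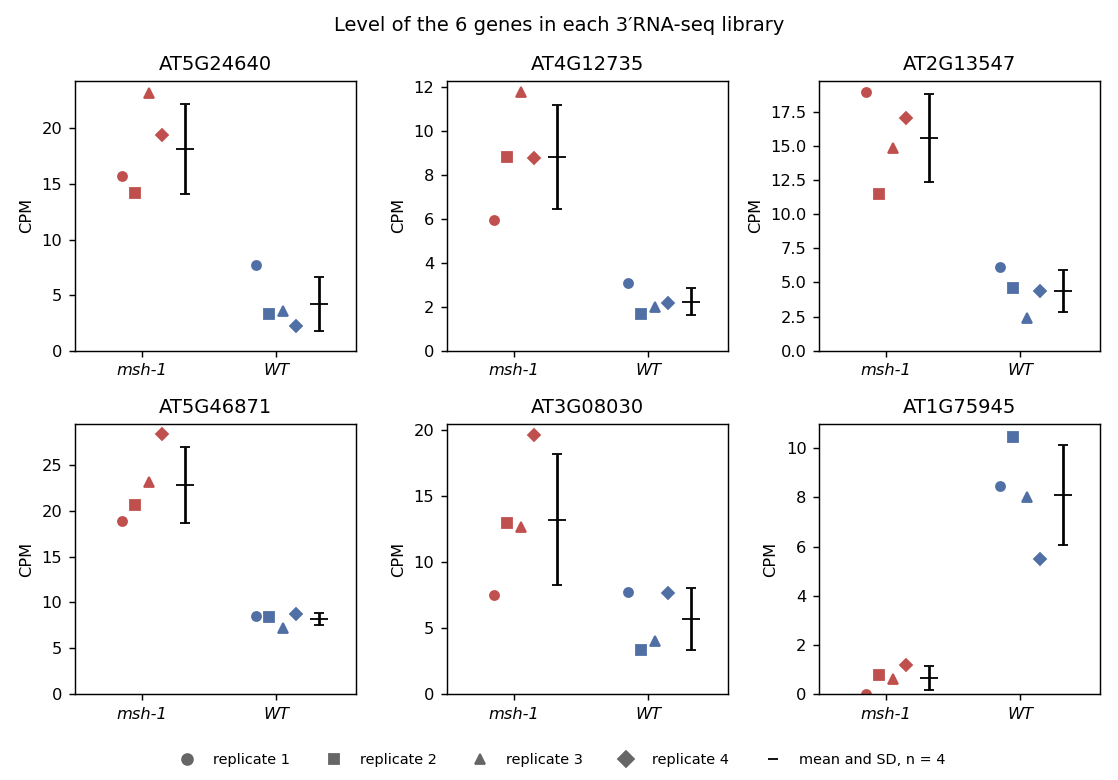
Level of each gene in CPM (vertical axis, from 0) in the 4 *msh-1* libraries (red) and the 4 WT libraries (blue), with the symbol giving the replicate number and the black bar the mean and SD. In AT3G08030 the *msh-1* 1 library, at 7.54 CPM, lies below WT 1, at 7.70 CPM, while in the other 5 panels the genotypes do not overlap.

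AT5G24640 had the highest ratio of the 5 genes that were higher in *msh-1*. It was counted 98, 37, 75 and 82 times in the *msh-1* libraries 1 to 4 and 10, 8, 9 and 2 times in the WT libraries, which gave 15.7, 14.1, 23.2 and 19.4 CPM in *msh-1* and 7.70, 3.35, 3.60 and 2.19 CPM in WT. The lowest *msh-1* library stood 1.84-fold above the highest WT library, which was WT 1. The means were 18.1 ± 4.04 CPM in *msh-1* and 4.21 ± 2.41 CPM in WT (SD, n = 4 each), a ratio of 4.30 and a log2 difference of 2.13 (SE 0.29). With the counts of each genotype pooled, 292 in *msh-1* and 29 in WT, the ratio was 4.38, with an exact 95% interval of 2.99 to 6.66. This interval and those below cover counting error only.

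AT5G24640 is a single-exon gene on the plus strand of chromosome 5, at chr5:8436352-8436895. Its nearest relative, AT2G41730, encodes a protein that is 89.1% identical over 119 residues, and 275 of the last 300 bases of the AT5G24640 transcript align to it with 84.4% identity, so that reads from the pair may be shared where the counting could not separate them. AT2G41730 had 57, 22, 40 and 28 counts in *msh-1* and 5, 8, 16 and 1 counts in WT. In CPM the lowest *msh-1* library, at 6.63, stood just above the highest WT library, at 6.40. Its log2 fold change of 1.12 (SE 0.33) did not pass the test over all genes (adjusted p = 0.257, edgeR). The more distant relative AT5G40690, 40.7% identical over 86 residues, had 131 ± 47.2 CPM in *msh-1* and 97.6 ± 28.7 CPM in WT (SD, n = 4 each; adjusted p = 0.754, edgeR), and its groups overlapped, with the lowest values in *msh-1* 1 and WT 4.

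**Figure D2:**
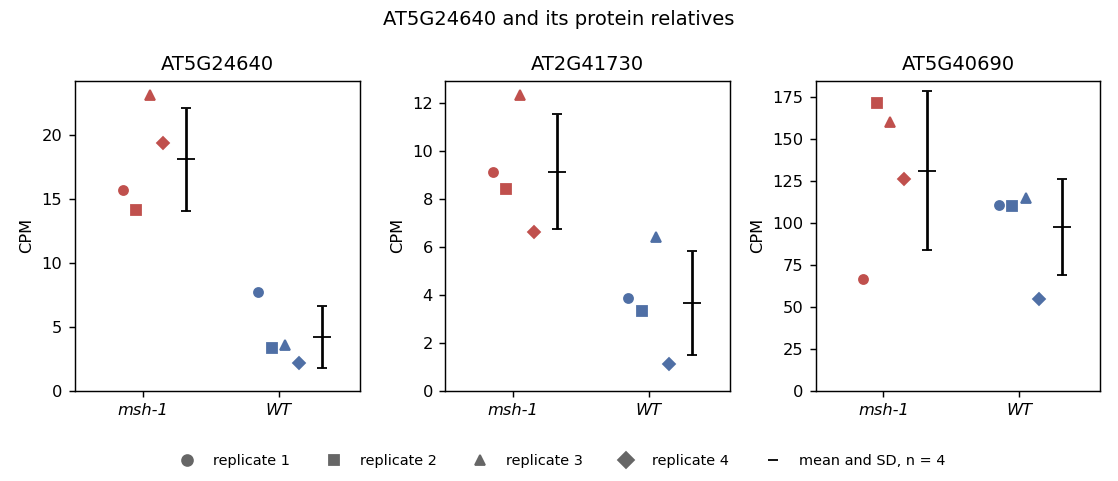
CPM (vertical axis, from 0, with its own scale in each panel) of AT5G24640 and of the genes AT2G41730 and AT5G40690, which encode similar proteins, in 4 *msh-1* libraries (red) and 4 WT libraries (blue); black bars give the mean and SD. AT2G41730 averaged 9.14 CPM in *msh-1* and 3.67 CPM in WT, and AT5G40690 131 CPM in *msh-1* and 97.6 CPM in WT.

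AT4G12735 had the lowest counts of the genes that were higher in *msh-1*. It was counted 37, 23, 38 and 37 times in *msh-1* and 4, 4, 5 and 2 times in WT. In CPM these were 5.94, 8.80, 11.8 and 8.76 in *msh-1* and 3.08, 1.67, 2.00 and 2.19 in WT. The groups did not overlap, although the deepest library, *msh-1* 1, came within 1.93-fold of WT 1. The means were 8.81 ± 2.37 CPM in *msh-1* and 2.24 ± 0.602 CPM in WT (SD, n = 4 each), and the log2 fold change was 1.99 (SE 0.35). The pooled ratio was 3.92, with an exact 95% interval of 2.29 to 7.20, the widest relative to its size among the genes that were higher in *msh-1*, from 135 counts in *msh-1* and 15 in WT.

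AT4G12735 lies on the minus strand of chromosome 4, at chr4:7493716-7494234, beside a tandem copy, AT4G12731, whose protein is 75.0% identical. The coding sequences of the pair are shown because the copy had 0 counts in all 8 libraries, and the capitals mark the 30 of 183 bases that differ (83.6% identical). Both are from RefSeq (TAIR10.1), minus strand, at chr4:7494003-7494185 and chr4:7493178-7493360.
AT4G12735: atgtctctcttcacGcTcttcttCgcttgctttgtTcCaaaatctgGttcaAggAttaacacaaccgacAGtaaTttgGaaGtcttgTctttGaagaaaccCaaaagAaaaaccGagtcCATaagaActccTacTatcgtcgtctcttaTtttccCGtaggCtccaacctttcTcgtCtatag
AT4G12731: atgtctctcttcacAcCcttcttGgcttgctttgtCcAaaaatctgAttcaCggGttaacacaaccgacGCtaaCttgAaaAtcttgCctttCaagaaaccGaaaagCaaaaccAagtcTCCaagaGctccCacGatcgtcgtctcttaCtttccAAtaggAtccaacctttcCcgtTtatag
A count of 0 in WT 4, the shallowest library, allows up to 3.29 CPM and in *msh-1* 1, the deepest, up to 0.481 CPM. The gene model of AT4G12731, chr4:7493133-7493360, ends shortly after its coding sequence, so a 3′ read of the copy could fall outside it.

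The promoters of the 6 genes, 250 bases before to 50 after the annotated start, were searched on both strands for 7 short sequences. These were the G-box (CACGTG), a binding site of bZIP and bHLH factors, and the core of the abscisic acid response element (ACGTG), which the G-box contains. They were further the RY repeat (CATGCA), bound by the B3 factors of seed maturation, and the P1BS element (GNATATNC), bound by the PHR factors of phosphate starvation. The others were the evening element of the circadian clock (AAAATATCT), the light-response I-box (GATAAG) and the TATA sequence (TATAAA). The abscisic acid core was found in AT4G12735 alone, with 2 matches, and is held by 26.7% of 27443 promoters. The G-box (7.68% of promoters) and the evening element (2.82%) were in none of the 6. The 250 bases upstream of AT4G12735 are shown with both ACGTG matches in capitals, the one further from the start on the opposite strand (RefSeq, TAIR10.1, chr4:7494235-7494484, minus strand).
AT4G12735 upstream: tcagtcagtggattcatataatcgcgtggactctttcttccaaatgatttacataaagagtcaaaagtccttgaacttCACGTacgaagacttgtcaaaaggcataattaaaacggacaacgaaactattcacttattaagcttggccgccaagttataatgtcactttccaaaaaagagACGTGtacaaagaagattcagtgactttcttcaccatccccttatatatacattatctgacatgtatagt
A match is a stretch of letters and not a site of binding.

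AT2G13547 was counted 118, 30, 48 and 72 times in *msh-1* and 8, 11, 6 and 4 times in WT. Its levels were 18.9, 11.5, 14.8 and 17.0 CPM in *msh-1* and 6.16, 4.60, 2.40 and 4.38 CPM in WT. The groups were separated by 5.31 CPM, between *msh-1* 2 and WT 1. The means were 15.6 ± 3.21 CPM in *msh-1* and 4.39 ± 1.54 CPM in WT (SD, n = 4 each), and the log2 fold change was 1.94 (SE 0.27) and a pooled ratio of 4.02 (exact 95% interval 2.74 to 6.13).

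No other RefSeq protein resembled that of AT2G13547 at an E value of 1e-05. The gene is a single exon of 822 bases on the plus strand of chromosome 2, at chr2:5646602-5647423, of which 213 bases are coding. The coding sequence is shown as that of an mRNA with no protein relative, with start and stop codons in capitals (RefSeq, TAIR10.1, chr2:5647172-5647384, plus strand).
AT2G13547: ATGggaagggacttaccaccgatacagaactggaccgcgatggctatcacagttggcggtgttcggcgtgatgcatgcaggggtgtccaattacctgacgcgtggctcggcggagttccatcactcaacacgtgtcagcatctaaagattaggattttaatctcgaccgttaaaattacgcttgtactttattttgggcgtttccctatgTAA
The end of its transcript does resemble other transcripts. Of its last 300 bases, 95 align with 73.7% identity to AT1G67365, which had 65.1 ± 7.84 CPM in *msh-1* and 78.2 ± 12.2 CPM in WT (SD, n = 4 each; adjusted p = 0.638, edgeR), and 267 align with 71.9% identity to AT3G44006, with 1 count in *msh-1* and 0 in WT. The longest match, 276 bases at 67.8% identity, was to AT1G67105, which is not among the genes counted. The promoter of AT2G13547 held 3 matches to TATAAA, which 52.1% of promoters hold, and an I-box after the start (14.6%).

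AT5G46871, the defensin-like gene, had the highest level of the 6 and the least spread. Its counts were 118, 54, 75 and 120 in *msh-1* and 11, 20, 18 and 8 in WT, or 18.9, 20.7, 23.2 and 28.4 CPM in *msh-1* and 8.47, 8.37, 7.20 and 8.76 CPM in WT. The WT libraries lay close together, between 7.20 and 8.76 CPM, and the lowest *msh-1* library was 2.16-fold above the highest of them. The means were 22.8 ± 4.13 CPM in *msh-1* and 8.20 ± 0.686 CPM in WT (SD, n = 4 each), and the log2 fold change was 1.49 (SE 0.19) and a pooled ratio of 2.80 (exact 95% interval 2.12 to 3.77).

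AT5G46871 has 2 exons on the plus strand of chromosome 5, at chr5:19017942-19018710, and is 428 kb from *DOG1*, the locus that adjoins *MUSHER*. AT5G24640, on the same chromosome, is 10154 kb from *DOG1*.

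AT5G46871 also lies beside a close copy with 0 counts in all 8 libraries, AT5G46874, whose protein is 84.6% identical over 78 residues. The coding sequences are shown so that the copies can be compared, with the 22 differing bases of 237 aligned in capitals (90.7% identical), together with 3 further bases present only in AT5G46874. They are from RefSeq (TAIR10.1), plus strand, and span chr5:19018101-19018443 and chr5:19022383-19022699 with an intron in each.
AT5G46871: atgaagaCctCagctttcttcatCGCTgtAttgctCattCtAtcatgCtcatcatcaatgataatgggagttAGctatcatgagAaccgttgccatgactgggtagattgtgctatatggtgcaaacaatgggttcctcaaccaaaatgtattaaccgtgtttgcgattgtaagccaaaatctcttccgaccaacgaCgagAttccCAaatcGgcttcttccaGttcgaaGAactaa
AT5G46874: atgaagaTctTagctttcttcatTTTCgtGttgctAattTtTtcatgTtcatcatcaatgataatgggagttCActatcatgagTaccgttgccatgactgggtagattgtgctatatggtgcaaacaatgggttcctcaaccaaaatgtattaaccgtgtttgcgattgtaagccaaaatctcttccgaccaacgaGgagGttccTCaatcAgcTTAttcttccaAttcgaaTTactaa
The annotated end of AT5G46874 holds no untranslated bases, so a 3′ read of the copy could fall outside its gene model. Within the last 300 bases of AT5G46871, 91 bases were between 91.2% and 93.4% identical to stretches of AT3G42433, AT5G17600 and AT1G49500, which together had 6 counts in *msh-1* and 4 in WT. The annotated product name of AT5G46871 and AT5G46874 is putative membrane lipoprotein, and a note places AT5G46871 in the defensin-like family. Other defensin-like genes were found by product name only, so genes named as this pair is are not among them. Of 108 other genes with defensin-like in the product name, 34 had a count, 3 passed the filter and 0 passed the test (edgeR, 0 also at an unadjusted p of 0.05). The most abundant of them, AT5G60615, had 49.6 ± 19.2 CPM in *msh-1* and 55.6 ± 4.28 CPM in WT (SD, n = 4 each). Of all genes tested 0.413% passed, so 0 of the 3 defensin-like genes tested is near the general share and says little of the family.

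AT3G08030, the DUF642 gene, had groups that overlapped. It was counted 47, 34, 41 and 83 times in *msh-1* and 10, 8, 10 and 7 times in WT, which gave 7.54, 13.0, 12.7 and 19.6 CPM in *msh-1* and 7.70, 3.35, 4.00 and 7.67 CPM in WT. *msh-1* 1, a library with low green tissue and silique wall sums, was below WT 1 and WT 4, and *msh-1* 4 was well above the rest. WT 4, where both sums were low too, was at 7.67 CPM and above WT 2 and WT 3. The means were 13.2 ± 4.96 CPM in *msh-1* and 5.68 ± 2.33 CPM in WT (SD, n = 4 each), and the log2 fold change was 1.36 (SE 0.37) and a pooled ratio of 2.55 (exact 95% interval 1.78 to 3.76). Since *msh-1* 1 was the only *msh-1* library within the WT range, the groups did not overlap without it, which adds nothing to the values above. Of all genes tested without *msh-1* 1, 9.84% had groups that did not overlap. With WT 4 left out as well, the means were 15.3 ± 3.98 CPM in *msh-1* and 5.07 ± 2.38 CPM in WT (SD, n = 3 each). The part of green tissue and silique wall in these values was not tested.

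AT3G08030 has 3 exons on the plus strand of chromosome 3, at chr3:2563803-2566042, and 2 annotated transcripts. The other 9 DUF642 genes were at low levels. DGR1 had 0 counts in all 8 libraries, 8 had a count and none of the 9 passed the filter, so 0 could be tested. AT4G32460 had 1.84 ± 0.664 CPM in *msh-1* and 2.08 ± 1.32 CPM in WT, AT5G11420 1.95 ± 0.575 CPM in *msh-1* and 1.67 ± 0.498 CPM in WT, and AT1G29980 1.37 ± 0.430 CPM in *msh-1* and 0.788 ± 0.558 CPM in WT (SD, n = 4 each). AT3G08030 was thus the most abundant DUF642 mRNA in the means of either genotype. Its protein is between 56.7% and 61.8% identical to its 5 closest relatives.

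The 250 bases upstream of AT3G08030 are shown because the promoter was the only 1 of the 6 with the RY repeat of seed maturation genes, which 9.72% of promoters hold. Its 3 RY matches overlap each other, at positions −147, −145 and −143 from the start, and overlap a P1BS match (6.25% of promoters) that begins at position −152, so that the capitals mark a joined run (RefSeq, TAIR10.1, chr3:2563553-2563802, plus strand).
AT3G08030 upstream: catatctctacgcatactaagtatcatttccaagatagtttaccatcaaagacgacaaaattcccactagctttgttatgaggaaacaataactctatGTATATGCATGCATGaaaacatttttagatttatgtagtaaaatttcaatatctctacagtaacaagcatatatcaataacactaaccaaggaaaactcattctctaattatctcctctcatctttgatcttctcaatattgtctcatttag
A P1BS match was also found in the promoter of AT5G46871, at position −205.

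AT1G75945 was the gene that was lower in *msh-1*. It was counted 0, 2, 2 and 5 times in *msh-1* and 11, 25, 20 and 5 times in WT, although the *msh-1* libraries were the deeper ones. The levels were 0, 0.765, 0.618 and 1.18 CPM in *msh-1* and 8.47, 10.5, 8.00 and 5.48 CPM in WT. The lowest WT library, WT 4, stood 4.63-fold above the highest *msh-1* library. In *msh-1* 1 the count of 0 allows up to 0.481 CPM. The means were 0.642 ± 0.490 CPM in *msh-1* and 8.10 ± 2.05 CPM in WT (SD, n = 4 each), the *msh-1* mean being 7.92% of that in WT. The fitted log2 fold change was −3.82 (SE 0.49). With 9 counts in *msh-1* and 61 in WT the pooled ratio was 0.0643, with an exact 95% interval of 0.0280 to 0.130.

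AT1G75945 lies on the minus strand of chromosome 1, at chr1:28515245-28515916, in 2 exons. No other RefSeq protein resembled its product, none of the 7 sequences was found in its promoter, and no other gene model overlaps it. Whether reads of other transcripts were counted for AT1G75945 was not tested. Its coding sequence is shown as that of a gene with no protein relative and no overlap, with start and stop codons in capitals (RefSeq, TAIR10.1, minus strand, within chr1:28515413-28515809).
AT1G75945: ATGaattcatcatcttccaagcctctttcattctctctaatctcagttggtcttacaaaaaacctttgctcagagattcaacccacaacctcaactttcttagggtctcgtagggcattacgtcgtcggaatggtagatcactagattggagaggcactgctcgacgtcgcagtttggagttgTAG
The next gene along the chromosome, *SKP1*, a subunit of ubiquitin ligases, had 517 ± 35.0 CPM in *msh-1* and 548 ± 34.6 CPM in WT (SD, n = 4 each; adjusted p = 0.828, edgeR).

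The fold changes of the 6 genes kept their sign whichever library was left out. AT5G24640 ranged from 2.00 to 2.46 on the log2 scale, AT4G12735 from 1.83 to 2.18, AT2G13547 from 1.66 to 2.12, AT5G46871 from 1.36 to 1.61 and AT3G08030 from 1.07 (without *msh-1* 4) to 1.63 (without *msh-1* 1). AT1G75945 ranged most, from −4.46 without *msh-1* 4, its highest *msh-1* library, to −3.18 without *msh-1* 1, where it had 0 counts. Since the groups were chosen apart, a sign that is kept is no measure of stability.

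**Figure D3:**
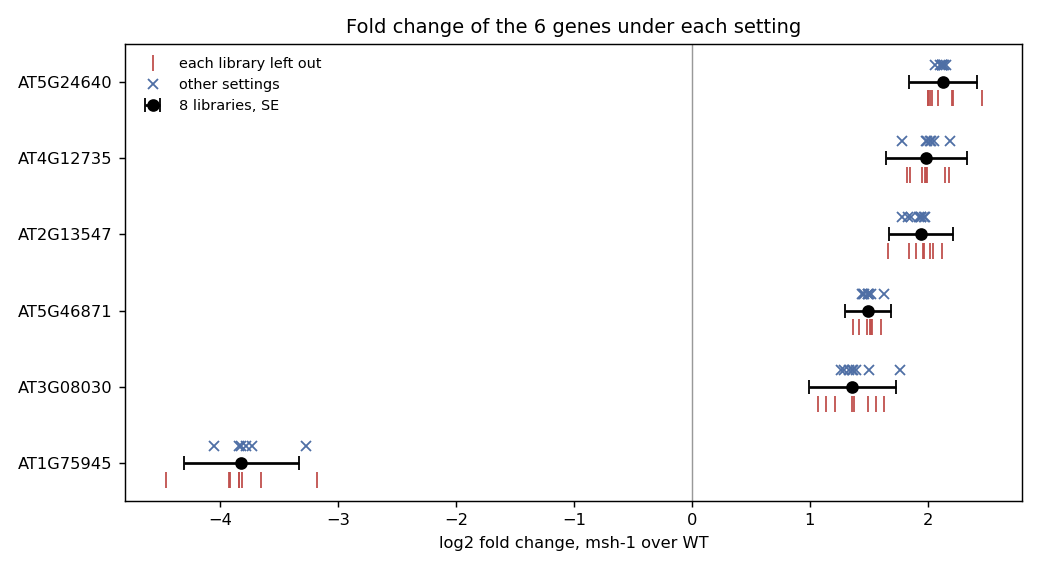
Log2 fold change of *msh-1* over WT (horizontal axis) for each gene: the value from 8 libraries with its SE (black), the values with each library left out in turn (red bars) and those under other scalings, tests, filters, depth, block or 6 libraries (blue crosses). All values for the first 5 genes lie above 0 and all for AT1G75945 lie below it, with AT3G08030 reaching 1.07 at its lowest. AT4G12735 and AT1G75945 have no value at equal depth, and that of AT3G08030 rests on 2 of 21 draws. AT1G75945 also has none under the filter of at least 10 counts in 4 libraries.

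The spread between libraries is given beside the error of counting. That error was larger in WT for the 5 genes that were higher in *msh-1*, since they had fewer counts there, and a difference in spread between the genotypes was not tested. In *msh-1* the coefficient of variation (CV) of the CPM was 22.3% for AT5G24640, 26.9% for AT4G12735, 20.6% for AT2G13547, 18.1% for AT5G46871 and 37.5% for AT3G08030, where counting alone would give 12.2%, 18.0%, 12.9%, 10.9% and 14.5%. The gap was largest for AT3G08030 among these 5. In WT the CV was 57.2% for AT5G24640 and 41.0% for AT3G08030, above the 39.7% and 36.7% of counting. For AT4G12735 (26.9%), AT2G13547 (35.2%), AT5G46871 (8.37%) and AT1G75945 (25.3%) the CV in WT was below that of counting, at 56.0%, 40.2%, 28.9% and 27.7%. For AT1G75945 in *msh-1*, at 9 counts in all, the CV was 76.4% where counting would give 68.1%.

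**Figure D4:**
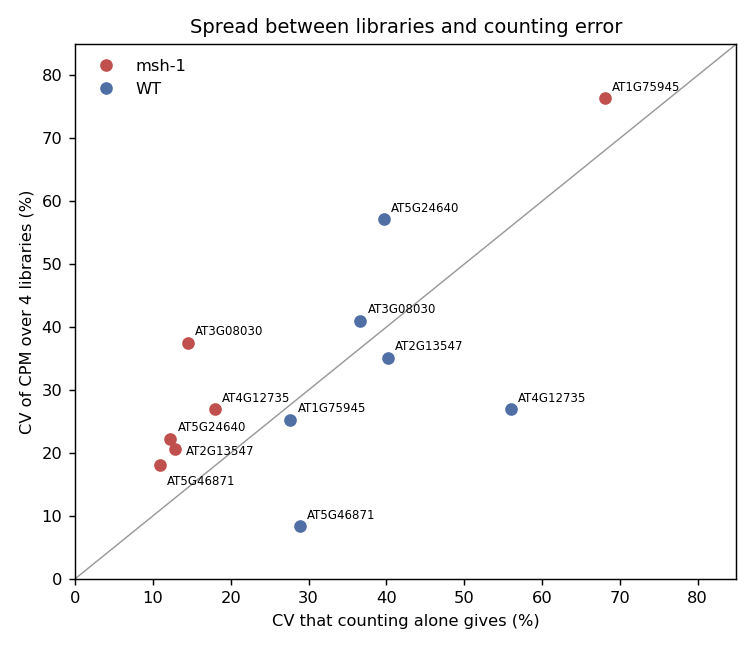
CV of CPM over the 4 libraries of a genotype (vertical axis, %) against the CV that Poisson counting alone would give at the observed counts (horizontal axis, %), for the 6 genes in *msh-1* (red) and WT (blue), with the line of equality. All 6 *msh-1* points lie above the line and 4 of the 6 WT points below it, AT5G46871 in WT lowest at 8.37%.

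Across the 8 libraries the levels of the 5 higher genes followed one another, with Pearson correlations of log2(CPM + 0.5) between 0.77 and 0.95 over 10 pairs, which share the libraries and the difference between genotypes. With the genotype means removed, the correlations were between 0.08 (AT4G12735 and AT2G13547) and 0.75 (AT5G46871 and AT3G08030). The genes most like each member in level were found in the same way among all genes tested, over the same 8 libraries. For AT5G24640 the likeness was highest for AT5G65920, an ARM repeat protein (r = 0.985), AT3G01350, a major facilitator protein (0.971), and *AFP2*, a negative regulator in abscisic acid signalling (0.963). *AFP2* was also among the 3 for AT4G12735 (0.953), with AT1G20100 (0.971) and AT1G54575 (0.955). *AFP2* had 70.4 CPM in *msh-1* and 59.7 CPM in WT, and did not pass the test (log2 fold change 0.24, adjusted p = 0.424, edgeR).

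For AT2G13547 the most alike were AT5G05965, annotated as a cell wall protein (0.966), AT5G47060 (0.953) and *LBD41*, a LOB domain transcription factor (0.951). For AT5G46871 they were *GSTF2*, a glutathione transferase (0.986), at 536 CPM in *msh-1* and 441 CPM in WT, AT4G16000 (0.971) and again AT5G47060 (0.969). For AT3G08030 they were AT4G15700, a thioredoxin-like protein (0.988), the protease-like AT3G22260 (0.958) and AT5G10120 of the EIN3 family (0.951). AT4G15700 had 7.57 CPM in *msh-1* and 3.36 CPM in WT. For AT1G75945 they were *LEJ1*, a CBS domain protein (0.964), at 4.62 CPM in *msh-1* and 10.2 CPM in WT, the noncoding AT5G06845 (0.961) and AT3G29240 (0.957), at 3.40 CPM in *msh-1* and 14.4 CPM in WT. These correlations include the difference between genotypes for which the members were chosen. With the genotype means removed, the 18 correlations were between 0.661 (*AFP2* with AT4G12735) and 0.985 (AT4G15700 with AT3G08030). The 18 were the highest of 10902 genes over these same 8 libraries, a choice that by itself favours high values here too. Nothing is read from them.

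The 5 genes on each side of every member were examined to see whether the difference extended along the chromosome. Of these 60 neighbours, 58 were in the table, 43 had a count, 20 passed the filter and 0 passed the test (edgeR), with 1 at an unadjusted p under 0.05, the sulfur starvation gene *LSU2* beside AT5G24640, at 4.82 ± 1.55 CPM in *msh-1* and 8.26 ± 1.58 CPM in WT (SD, n = 4 each; log2 fold change −0.73, SE 0.28, adjusted p = 0.431). Of all genes tested 0.413% passed, so that 0 of 20 is near the general share. With so few genes, these counts cannot show whether the difference extended. The median log2 fold change of the 20 neighbours was −0.06, beside −0.01 for all genes tested, and none of the 60 overlapped a member. The tested neighbours of AT2G13547, *ABH1* and *NAD-ME1*, had log2 fold changes of 0.05 (SE 0.19) and −0.04 (SE 0.21), and *VAM3* beside AT5G46871 had 0.01 (SE 0.12). *NUDT7*, a nudix hydrolase that restrains defence and lies on the other strand near AT4G12735, did not pass the filter. It had 0.642, 1.15, 0.618 and 1.18 CPM in *msh-1* and 6.93, 9.20, 8.00 and 0 CPM in WT, where WT 4 overlapped *msh-1*. *LSU4*, next to *LSU2*, did not pass it either, with 0.481, 3.06, 3.40 and 1.42 CPM in *msh-1* and 10.8, 10.9, 6.40 and 0 CPM in WT, again with WT 4 at 0.

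**Figure D5:**
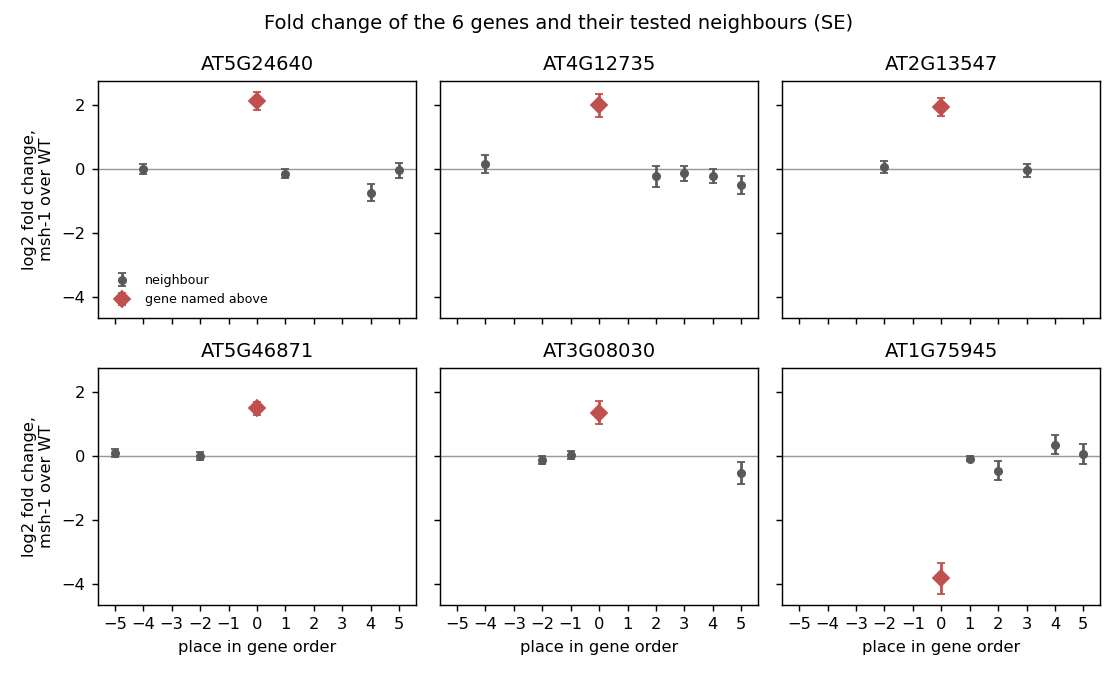
Log2 fold change of *msh-1* over WT with its SE (vertical axis) for each member (red diamond, at 0) and for those of its neighbours that passed the filter (grey), placed by gene order on the chromosome (horizontal axis). The members lie between −3.82 and 2.13, and the 20 neighbours between −0.73 and 0.36.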

How the data were processed

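Per the labels and the methods of the study, cDNA was primed with barcoded oligo(dT) carrying molecular identifiers, and the submitters' processing notes name STAR 2.7.8a and TAIR10. The values the authors deposited are raw whole-number counts, 1 per gene and library; the annotation, strand and use of identifiers in counting are not given in the sources used here. Of 37184 gene IDs, 36899 matched RefSeq TAIR10.1, used for names, sequences and positions. Samples of other assays were left out.

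In R 4.3.3, edgeR 4.0.16 (TMM factors, default filter, quasi-likelihood test, Benjamini-Hochberg adjustment) was fitted to all 8 libraries. A gene passed with an adjusted p below 0.05 and more than a 1.5-fold difference; the SE is the size of the log2 fold change over the root of its F statistic. Protein relatives came from blastp (BLAST 2.17.0, E value 1e-05). Alternatives were DESeq2 1.42.0, its size factors, limma 3.58.1 (voom), changed filters, libraries drawn to equal depth, a replicate block, 6 libraries and each library left out. Library totals set the precision, between 0.481 and 3.29 CPM for 3 counts. The code was tested on simulated data.

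The members and lists were chosen with earlier results of these data known. Genes named are the members, the 3 genes most correlated with each, protein relatives and neighbours that passed the test or overlapped a member, the DUF642 genes, *PIR1* and *DOG1*. The marker genes and the other relatives, copies, defensin-like genes and neighbours named were chosen after their values were seen.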

Additional observations from a re-analysis of the deposited data

Results flagged for a closer look

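The sum of the 7 maturing embryo markers in WT 4 stood apart from the other WT libraries, at 32270.7 CPM against 39604.3 to 40907.9 CPM, a gap of 0.849 of the range of the 4 libraries. Among 22 groups of 4 libraries checked (the 6 genes and the 5 marker sums in each genotype), this was the only 1 set apart, where chance gives about 1.1. In the WT means most of the embryo sum was *CRA1*, *CRU3* and *OLEO1*, so it says little of the other markers. In WT 4 the 6 genes had between 2 and 8 counts each.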

How the results depend on the processing

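The WT counts of a gene were between 2 and 25 per library, which limits the precision of its values. With every library drawn down to 959004 counts (21 draws), AT4G12735 and AT1G75945 never passed the filter and gave no value, AT3G08030 passed in 2 draws, AT5G24640 and AT2G13547 in 16 and AT5G46871 in 20, and between 3 and 6 of the 6 genes had groups that did not overlap. The 45 genes that passed the test became 89 with DESeq2, 24 with limma-voom, 438 with no filter, 280 with 6 libraries (without WT 4 and *msh-1* 1), a median of 11 at equal depth, and between 4 (without WT 3) and 210 (without *msh-1* 1) with a library left out; the cause was not tested. Replicate numbers did not pair the libraries (correlations of same-numbered deviations −0.221, 0.147, 0.0591 and −0.0862), and 24 genes passed with a replicate block. Neighbours that passed numbered 1 with DESeq2 (*NUDT7*), 2 with no filter and 2 with 6 libraries (*NUDT7* and *LSU4*), and 0 to 2 with a library left out: *NUDT7* without WT 4, *msh-1* 1 or *msh-1* 2, and *LSU4* without WT 4. Of the protein relatives, 1 passed with no filter, AT2G41730. The log2 fold change of AT1G75945 ran from −4.46 to −3.18 with a library left out. With 6 libraries the groups did not overlap for 6 of the genes and for 18.4% of all genes tested.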
